A study of Homo sapiens with 2 samples.

Results

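The peroxisome proliferator-activated receptors (PPARs) and 7 genes that are classic targets of these receptors were examined in Ca9-22 cells carrying DLEU1 or a control vector. The members were the receptors PPARA, PPARD and PPARG and the lipid-handling genes FABP4, FABP5, CD36, CPT1A, PDK4, PLIN2 and ANGPTL4. They were chosen by gene name, with the values of these arrays already known, as every non-control probe whose name on the array was 1 of these 10. This gave 10 of 43317 gene names and 17 of 58201 probes. Because the choice used the same arrays, the values below are a description of the members and were not tested.

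Ca9-22 is an established oral squamous cell carcinoma (OSCC) cell line. The cells were infected with a lentiviral vector carrying the full-length cDNA of the long noncoding RNA DLEU1, or with an empty lentiviral vector as the control. Both cultures were selected with blasticidin (6 mg/ml as labelled) for 2 weeks, and total RNA (100 ng) of each was put on 1 Agilent 1-colour array after labelling with Cy3. There was 1 culture and 1 array per vector and no replicate, so vector, infection, selection and culture cannot be told apart in any difference below. The sources used here do not say whether the cells were a clone or a pool after selection, and the vector's DLEU1 copy, under the viral CMV promoter of this backbone, came on top of the cells' own gene.

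PPARs are nuclear receptors that bind fatty acids and their derivatives, pair with a retinoid X receptor (RXR) and bind DNA at direct repeats of a short half-site. PPARA is best known for switching on fatty acid oxidation in the liver, PPARG for the making of fat cells, and PPARD is present in most tissues, the epidermis and oral epithelium included. In stratified epithelia PPARs are known to take part in differentiation and in the supply of lipid for the barrier, and the fatty acid binding proteins carry ligands to them.

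The probes behind the PPARG, CD36 and CPT1A values are shown because these 3 genes differed between the vectors and the probes name exactly which stretch of coding sequence was measured. Positions are those in the deposited files (hg19), and the letters are those printed on the array, 5′ to 3′ in the sense of the transcript. The first PPARG probe lies on chromosome 3 from 12458499 to 12458558 (plus strand), in the coding sequence of the ligand-binding domain. The other lies from 12434128 to 12434187, in that of the DNA-binding domain. The CD36 probe aligns to chromosome 7 between 80302711 and 80303343 (plus strand), a span of 633 bases for 60 letters, so it crosses a splice junction. The CPT1A probe lies on chromosome 11 from 68527063 to 68527122 (minus strand), in the coding sequence.
PPARG, ligand-binding domain: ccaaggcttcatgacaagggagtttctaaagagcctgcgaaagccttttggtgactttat
PPARG, DNA-binding domain: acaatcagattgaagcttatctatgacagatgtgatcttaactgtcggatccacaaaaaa
CD36: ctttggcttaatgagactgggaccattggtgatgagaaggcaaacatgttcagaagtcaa
CPT1A: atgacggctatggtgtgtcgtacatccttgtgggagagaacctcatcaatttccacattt

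The half-site that PPARs and their relatives read, AGGTCA, was searched on both strands (as AGGTCA or TGACCT) in the 250 bases before each annotated start in RefSeq (GRCh38.p14). It was present in 4242 of 35116 windows (12.1%) and in 3 of the 19 windows of the members. All 3 belonged to PPARG, 1 of the 8 member genes with a window, and 2 of them overlap. Over all genes with a window, 3979 of 27305 (14.6%) held the half-site, so nothing is read from the 1 of 8. The pair of half-sites in tandem, AGGTCANAGGTCA, was in 6 of all windows (0.0171%) and in 0 of the 19. A match is only a match of letters, and its absence says nothing about sites elsewhere. PPARG is shown because both its probes were lower with the DLEU1 vector and, of the 8 genes with a window, it alone held the half-site, marked in capitals. FABP4 and FABP5 had no window in the table. The first window is chr3:12287118-12287367 and the other chr3:12288810-12289059, both on the plus strand.
PPARG, upstream start: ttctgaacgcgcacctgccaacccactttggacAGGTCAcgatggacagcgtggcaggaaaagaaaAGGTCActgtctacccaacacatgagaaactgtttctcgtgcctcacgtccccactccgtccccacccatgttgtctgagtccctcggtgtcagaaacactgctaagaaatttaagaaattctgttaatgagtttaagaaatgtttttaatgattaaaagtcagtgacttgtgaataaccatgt
PPARG, downstream start: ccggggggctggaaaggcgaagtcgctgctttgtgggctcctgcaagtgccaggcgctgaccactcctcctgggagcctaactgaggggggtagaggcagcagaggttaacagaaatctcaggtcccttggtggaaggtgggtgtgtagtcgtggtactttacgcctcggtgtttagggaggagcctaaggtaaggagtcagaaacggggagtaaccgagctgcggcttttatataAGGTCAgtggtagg

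Levels are given as the log2 of the processed signal minus the 75th percentile of the array, so 0 is the level that 75% of the probes lie below. Signals are the processed intensities before this scaling. Detected probes were those that the scanner software marked as well above background. A member was called higher or lower where it differed by at least 2-fold. A probe detected on 1 array only has a lower bound in place of a fold. Where its level on the other array lay above the lowest detected level, the plain difference is given instead. Of the 10 members, 7 were detected on both arrays, 2 with the DLEU1 vector only and 1 on neither array. Among the 9 detected on at least 1 array, FABP4, FABP5 and CD36 were higher with the DLEU1 vector and PPARG and CPT1A were lower. By the same rules 10.2% of the 22543 gene names detected on at least 1 array were higher and 10.0% were lower, and since the members were chosen on these arrays nothing is read from their count beside it. The software's own error is given for single probes below. It covers 1 spot on each array and not the variation between cultures, and the 17 member probes had 1 spot each.

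**Figure D1:**
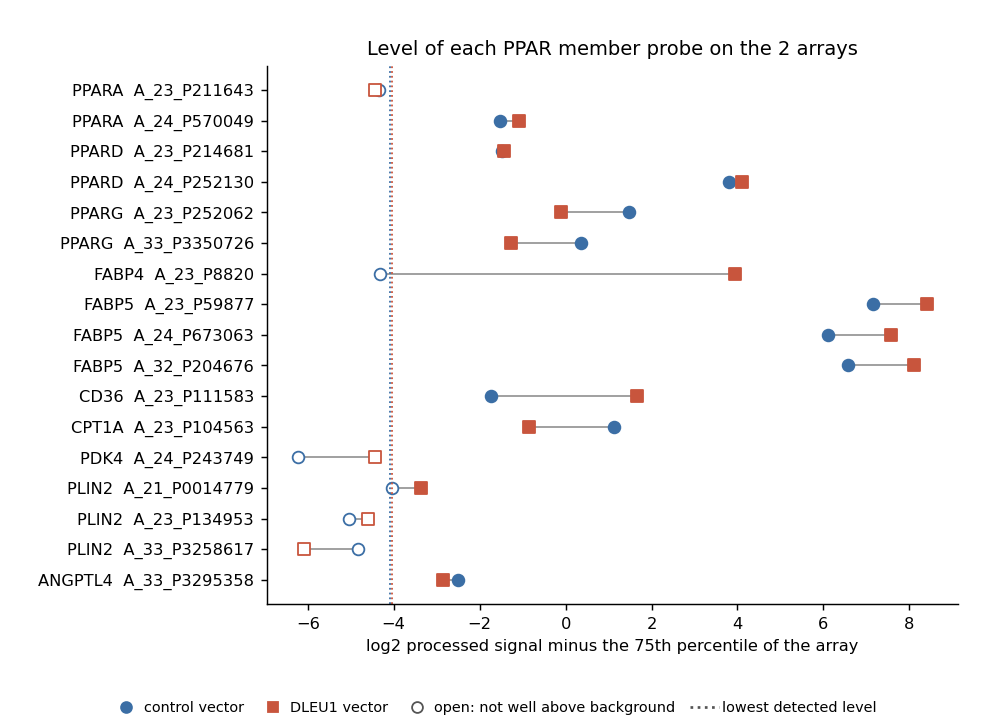
Level of each of the 17 member probes (rows) on both arrays, as log2 processed signal minus the 75th percentile of the array. Circles are the control vector, squares the DLEU1 vector and open symbols are not well above background; FABP4 goes from an open circle at -4.31 to a filled square at 3.94, and both PPARG probes and the CPT1A probe lie to the left with the DLEU1 vector.

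Among the receptors, PPARG was lower with the DLEU1 vector by both of its probes, and PPARA and PPARD stayed within 2-fold. The ligand-binding domain probe of PPARG read a level of 1.47 under the control vector and -0.11 under the DLEU1 vector, at signals of 670 and 219. This is a log2 difference of -1.58, or 2.98-fold lower, with a software error of 0.205. The DNA-binding domain probe read 0.35 against -1.28 in level, at signals of 310 and 97.2, a difference of -1.63 or 3.1-fold lower. The 2 stretches of the PPARG message thus gave differences 0.06 apart, less than the error of either. Of the 20246 genes detected on both arrays, 677 lay below PPARG, and the genes with the nearest differences were MLPH, the melanosome linker melanophilin (-1.58), and LIN9, a subunit of a cell cycle regulatory complex (-1.58).

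PPARA, the receptor that drives hepatic fatty acid oxidation, read a level of -1.52 under the control vector and -1.08 under the DLEU1 vector by its detected probe. The signals were 84.4 and 111, and the log2 difference was 0.44 with an error of 0.218. The nearest differences were those of DUSP18 and MTIF3 (both 0.44), and the remaining PPARA probe was detected on neither array. PPARD, the widely expressed receptor, read 3.81 under the control vector and 4.11 under the DLEU1 vector by its brighter probe. The signals were 3394 and 4063, and the difference was 0.30 with an error of 0.204, next to CHMP4C and TRIM69 (both 0.30). Its dimmer probe moved from -1.49 to -1.44, a difference of 0.04. That probe lies in a strip of the DLEU1 vector array where signals were low (the median difference of the spots around it was -0.26). With the spike-in probes set equal on both arrays, a setting chosen after the data were seen, the sign turned for PPARA (-0.026) and PPARD (-0.17). That setting moves the median of all probes by -0.46. No direction is therefore given for PPARA or PPARD.

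The fatty acid binding proteins held the member with the widest gap between the arrays. FABP4, the adipocyte fatty acid binding protein and a textbook PPARG target, had 1 probe, on chromosome 8 from 82395378 to 82395437 (hg19, minus strand). Its signal was 12.2 on the control array, not well above background, and 3630 on the DLEU1 array. The levels were -4.31 and 3.94. Measured against the lowest detected level, FABP4 was at least 262-fold higher with the DLEU1 vector, a log2 bound of 8.04. Of the 1238 genes detected with the DLEU1 vector only, FABP4 had the fourth largest bound, and the nearest were the cornulin gene CRNN (8.14) and the cysteine-rich C-terminal gene CRCT1 (8.50). CRNN and CRCT1 both lie in the epidermal differentiation complex of chromosome 1. No second probe of FABP4 was on the array to set beside it. Under the other settings its bound or difference ranged from 5.22, where signals under 100 were taken as not detected, to 8.26.

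FABP5, the epidermal fatty acid binding protein, was higher with the DLEU1 vector by all 3 of its probes. The brightest probe read 7.15 under the control vector and 8.41 under the DLEU1 vector, at signals of 34428 and 80292, a difference of 1.26 or 2.39-fold. The other 2 probes differed by 1.54 (levels of 6.56 and 8.10) and by 1.47 (levels of 6.11 and 7.58). The 3 probes therefore spanned 0.28 on the log2 scale, against an error of 0.204 for each, and no FABP5 spot was saturated. The probe with 1.47 also carried a transcript of the pseudogene FABP5P3 in its annotation, and FABP5 has several near-identical processed copies, so signal from these cannot be told apart from that of FABP5. With the spike-in probes set equal the difference was 0.80, under 2-fold. Its neighbours in size of difference were the noncoding LINC01410 (1.26) and the exoribonuclease XRN1 (1.26).

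FABP4 and FABP5 lie with FABP9, FABP12 and PMP2 in 1 cluster on 8q21, so the genes beside them were examined. FABP12, 41.9 kb from the FABP4 probe, was detected with the DLEU1 vector only, at least 2.54-fold higher (levels of -6.09 and -2.74). PMP2, a binding protein of myelin, and FABP9, expressed in testis, were detected on neither array. FABP5 lies 199 kb on the other side. The genes outside the binding proteins, named here whatever their values, lay within 2-fold. The differences were -0.22 for the adaptor PAG1, -0.35 for the inositol monophosphatase IMPA1, -0.22 for ZFAND1, 0.30 for the ESCRT subunit CHMP4C and 0.40 for the sorting nexin SNX16. The transporter SLC10A5 was detected on neither array. Of the 8 genes detected here 3 were called, beside 10.2% of all genes, but FABP4 and FABP5 were chosen with their values known, and FABP4 and FABP12 passed detection only through the array on which they were high. Nothing is therefore read from the contrast with the flanking genes. With the spike-in probes set equal only FABP4 was called.

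**Figure D2:**
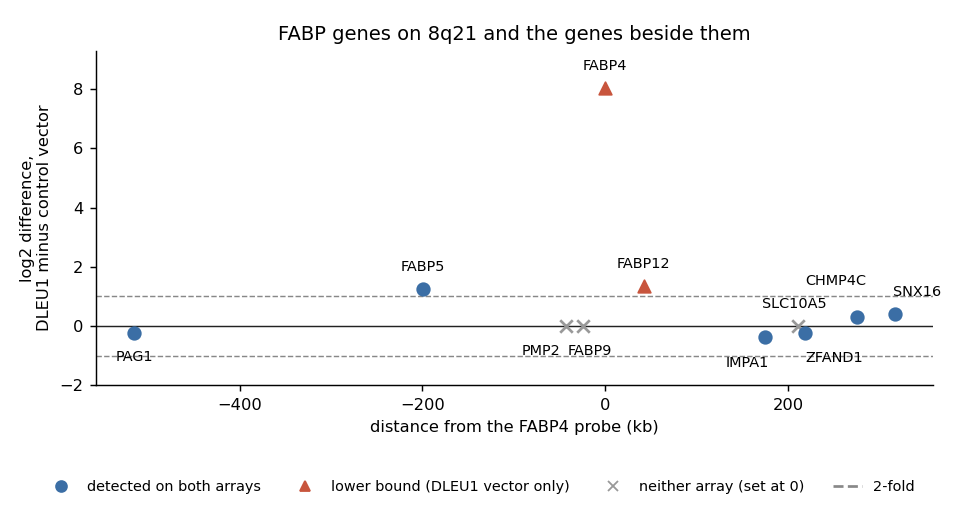
Log2 difference (DLEU1 vector minus control vector) of each gene on 8q21 against the distance of its probe from the FABP4 probe in kb. Circles were detected on both arrays, triangles are lower bounds for genes detected with the DLEU1 vector only, crosses were detected on neither array and are drawn at 0; FABP5 (1.26), FABP4 (at least 8.04) and FABP12 (at least 1.35) lie above the 2-fold line and the flanking genes lie between -0.35 and 0.40.

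Other carriers of small lipids were read as a list. Of 12 other fatty acid and retinoid binding proteins, 4 were detected on both arrays and 1 with the DLEU1 vector only. CRABP2, which carries retinoic acid to its receptors, had levels of 0.90 and 2.21 by its brighter probe, a difference of 1.31. Its other probe, of a different transcript, differed by 0.34 (levels of -3.16 and -2.83). With the mean of both probes, or with the spike-in probes set equal, CRABP2 was not called. CRABP1, which also binds retinoic acid, differed by -0.89. The binding proteins of liver (FABP1), gut (FABP2), heart (FABP3) and brain (FABP7) were detected on neither array. By the brightest probe, CRABP2 and FABP12 were thus 2 of the 5 detected that were higher, and 0 were lower. Over all genes detected on at least 1 array these shares were 10.2% and 10.0%. As FABP12 passed detection only through the array on which it was high, nothing is read from this count. FABP12 was not called with normexp background correction, with signals under 100 taken as not detected or with the spike-in probes set equal.

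CD36, the scavenger receptor that takes up long-chain fatty acids and oxidised lipoprotein, was higher with the DLEU1 vector. Its level was -1.74 in the control cells and 1.66 in the DLEU1 cells, at signals of 72.6 and 748. The difference was 3.40, or 10.6-fold, with an error of 0.214, and it ranged from 2.63 to 3.51 over the other settings. Of the 20246 genes detected on both arrays, 81 lay above CD36, and its neighbours in size were the small GTPase gene DIRAS1 (3.41) and the nuclease gene DNASE1L3 (3.41). A single probe was read, and it crosses a splice junction.

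CD36 is also a marker of macrophages, fat cells and capillary endothelium, so lists of other cell types were read beside it. Of 8 endothelial genes, 3 were detected: VWF, the von Willebrand factor gene, was higher by 3.70, CDH5, the endothelial cadherin, differed by -0.59 and the adhesion molecule ESAM by -0.21, while PECAM1, KDR, TEK, CLDN5 and EMCN were detected on neither array. Another VWF probe detected on both arrays differed by only -0.07 (levels of -2.85 and -2.92), so the VWF probes disagree. Of 6 macrophage genes with a probe, 5 were detected, from -1.60 for the endotoxin co-receptor CD14 to 1.86 for the growth factor receptor CSF1R, and CD163 was detected on neither. CD14 was not called with normexp or where signals under 100 were taken as not detected. Of 8 adipocyte genes, 2 were detected (CIDEC at -0.26 and LIPE at 0.37), and ADIPOQ, LEP, PLIN1, CFD, GPD1 and TUSC5 were detected on neither array. Of 8 fibroblast genes, 3 were detected, with COL1A1 higher by 3.99, LUM at least 2.47-fold higher and PDGFRB at -0.33, while COL1A2, COL3A1, DCN, PDGFRA and THY1 were detected on neither. LUM was detected with the DLEU1 vector only. It was not called with normexp, with signals under 100 taken as not detected or with the spike-in probes set equal. Of 7 sebocyte genes only FAR2 was detected, on the control vector array, at least 1.42-fold lower with the DLEU1 vector. The part of VWF, COL1A1 and CSF1R in the CD36 and FABP4 values was not tested. All 9 squamous epithelial genes, which mark the labelled cell type, were detected on both arrays. They ranged from -0.78 for EPCAM to 3.09 for KRT17, with a median of 1.04. Of these, 5 were higher by at least 2-fold, as were FABP4, FABP5 and CD36, beside 10.2% of all genes detected on at least 1 array. The other 4 were not: TP63 (0.96), SFN (0.00), ITGB4 (-0.09) and EPCAM. Among the 5, CDH1 (1.04) was not called under median scaling or with the spike-in probes set equal. The part of the 5 in the values of the members was not tested either.

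Scavenger receptors related to CD36 lay on both sides of 0. Of 5 detected, OLR1, the lectin-like receptor for oxidised lipoprotein, was lower (levels of 1.01 and -0.49, a difference of -1.49). MARCO was detected with the control vector only and was at least 3.82-fold lower, but was not called with normexp or where signals under 100 were taken as not detected. MSR1 was detected with the DLEU1 vector only, by 1 of its 4 probes, and was at least 2.07-fold higher. Its 3 RefSeq-transcript probes were detected on neither array, and the call was lost under 6 of the 14 other settings that kept the 2-fold threshold, median scaling, quantile normalization and normexp among them. SCARB2, a lysosomal member of the CD36 family, differed by 0.21. Of the 5 receptors, 1 was thus higher and 2 lower, beside 10.2% and 10.0% of all genes detected on at least 1 array. Nothing is read from these counts. Fatty acid transporters and acyl-CoA synthetases, which hold fatty acids in the cell once taken up, were measured as a list of 14, of which 11 were detected. SLC27A1, a fatty acid transport protein, was higher (1.18, and 0.84 by its other probe), but was not called with the spike-in probes set equal. ACSL4, a synthetase that prefers arachidonic acid, had the lowest difference (-0.92). The median was -0.25 against -0.07 over all genes detected on both arrays.

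CPT1A, the outer-membrane carnitine palmitoyltransferase that controls entry of fatty acids into mitochondria, was lower with the DLEU1 vector. Its level was 1.13 in the control cells and -0.86 in the DLEU1 cells, at signals of 530 and 130. The difference was -1.99, or 3.96-fold lower, with an error of 0.208, and only 396 of the 20246 genes lay below it. Its neighbours in size were the kinase LCK (-1.99) and the scaffold IQGAP3 (-1.98). Its spot lies below the strip of low signal on the DLEU1 vector array, in the same columns, and the spots around it had a median difference of 0.02. CPT1A stayed lower under every other setting, between -2.45 and -1.62.

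The genes of the neighbouring steps lay within 2-fold. The other forms of the enzyme, CPT1B (0.45) and CPT1C (0.49), the inner-membrane enzyme CPT2 (0.18) and the carnitine carrier SLC25A20 (-0.44) are given as examples picked after their values were seen. Of 24 genes of the carnitine shuttle and mitochondrial beta-oxidation, 21 were detected on both arrays and 1, the uncoupling protein gene UCP2, with the control vector only (at least 1.45-fold lower). The mitochondrial carrier UCP3 was called under each scaling (2.83-fold higher in the main one, levels of 2.60 and 4.10) and was the only 1 in the main one. With the 75th percentile over detected probes, quantile normalization or loess 3 genes of the list were higher, and with the spike-in probes set equal 5 were lower. The lowest was the dehydrogenase HADH (-0.76), and the median was 0.07. In the peroxisomal list, which shortens very long and branched chains, 3 of 13 detected genes were called lower and 0 higher, beside 10.0% and 10.2% of all genes. 1 of the 3, CROT, rests on the choice between probes that disagree. The branched-chain oxidase ACOX2 was detected with the control vector only and was at least 39.2-fold lower (levels of 1.25 and -5.29). The peroxisomal transporter ABCD3 differed by -1.34, and by -1.21 through its other probe. CROT, the carnitine octanoyltransferase, was at least 6.70-fold lower by a probe in the strip of low signal (levels of -1.30 and -5.96). Its other probe, outside the strip, was detected with the DLEU1 vector only and was 2.90-fold higher (levels of -3.94 and -2.41). No direction is therefore given for CROT. Without the strip 2 of the list were lower and 1 was higher. ACOX3 had the highest difference (0.59), and the median of the 11 detected on both arrays was 0.33.

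PDK4, the kinase that turns off pyruvate dehydrogenase when fat is burnt, was detected on neither array, at signals of 3.24 and 10.9, so no fold is given. The other kinases, the phosphatases and the subunits of the complex were all 10 detected and 0 were called. Over all genes detected on at least 1 array 10.2% were higher and 10.0% lower, and nothing is read from 0 of 10. They ranged from -0.86 for the acetyltransferase subunit DLAT to 0.57 for PDK2, with a median of -0.40.

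PLIN2, the coat protein of lipid droplets in most cells, was seen only through a probe of the transcript ENST00000494753. Its signal was 14.8 on the control array, not well above background, and 22.8 on the DLEU1 array. This was 1.58-fold higher, a log2 difference of 0.66 with an error of 0.437. The control level lay above the lowest detected level, so 0.66 is the plain difference and not a bound. The nearest values were those of ANKRD30B (0.66) and LINC01511 (0.67). The probe of the RefSeq transcript and the remaining PLIN2 probe were detected on neither array. Of the 16 genes of the droplet coat and lipolysis, 11 were detected, and PLIN4, another perilipin, was the only 1 called (levels of 1.51 and 2.57, a difference of 1.06). Median scaling, normexp, equal spike-in probes and taking off the local trend each ended this call. Among all genes detected on at least 1 array, 10.2% were higher and 10.0% lower, and nothing is read from 1 of 11. FITM2, which aids droplet formation, had the lowest difference (-0.71), and the median was 0.05. PLIN1, PLIN5, CIDEA, CIDEB and G0S2 were detected on neither array.

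ANGPTL4, the secreted inhibitor of lipoprotein lipase, read a level of -2.50 in the control cells and -2.86 in the DLEU1 cells, at signals of 42.9 and 32.6. The difference was -0.36, with an error of 0.284, next to SLC25A5 and LOC606724 (both -0.36). Over the other settings it ranged from -0.82 to -0.086. Of its relatives and partners only 3 of 12 were detected and 0 were called, from GPIHBP1 (-0.46), the lipase anchor, to ANGPTL6 (0.41). Nothing is read from 0 of 3, beside 10.2% higher and 10.0% lower among all genes detected on at least 1 array. LPL itself was detected on neither array.

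**Figure D3:**
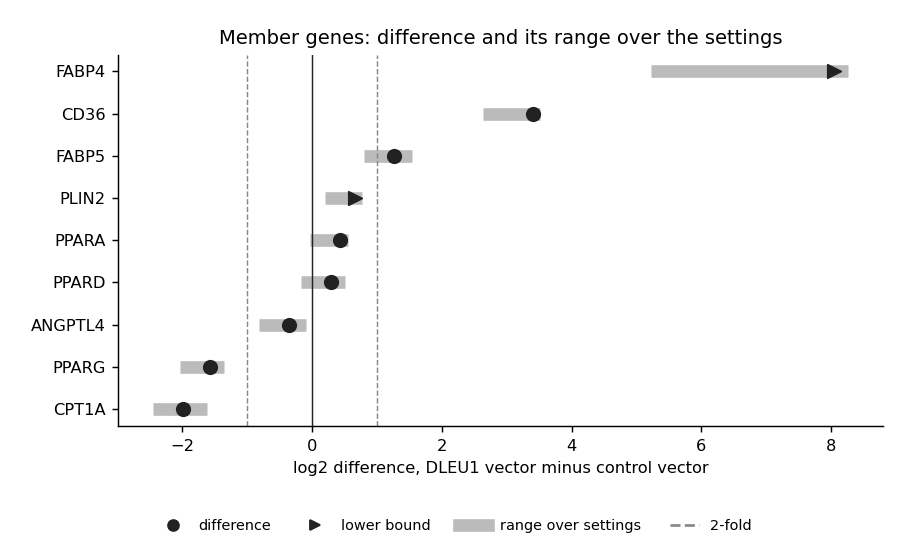
Log2 difference (DLEU1 vector minus control vector) of the 9 member genes detected on at least 1 array. Points are differences, triangles are lower bounds, grey bars the range over the other settings and dashed lines 2-fold; PPARG and CPT1A lie below -1 over their whole bar, FABP4 and CD36 above 1, and the bar of FABP5 crosses the line at 1. The triangle of PLIN2 is its plain difference.

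The partners of the receptors were read next. RXRA, the main RXR of epithelia, had levels of 7.56 and 7.90, a difference of 0.34. RXRB had levels of 0.29 and 1.41 and was higher by 1.12. RXRG was detected with the control vector only, by a probe of a noncoding transcript, and was 2.76-fold lower. The probe of its mRNA was detected on neither array. With normexp neither RXRB nor RXRG was called, and the spike-in setting ended the RXRB call. RXRG was also lost where signals under 100 were taken as not detected. Of 17 coactivators and corepressors, 15 were detected. NCOA3 (1.20) and NCOA2 (1.01), both steroid receptor coactivators, were higher in the main scaling. NCOA2 lies on the threshold and was not called under 7 of the 14 other settings that kept the 2-fold threshold, while NCOA3 lost its call only with the spike-in probes set equal. In the same list PPRC1, a relative of the PGC-1 coactivators, was lower under each of them (-1.44, levels of 4.06 and 2.62). PPARGC1A, the best-known coactivator of PPARs in energy use, and TBL1X were detected on neither array, and the median was -0.27. Of the 15 detected in this list, 2 were thus higher and 1 lower, beside 10.2% and 10.0% of all genes detected on at least 1 array. Nothing is read from these counts.

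Fat synthesis was measured by 16 genes, all detected on both arrays. The elongase ELOVL6, which makes stearate from palmitate, was lower with the DLEU1 vector (levels of 2.69 and 0.68, a difference of -2.01). Its other detected probe differed by -1.97. DGAT2, which makes triglyceride, was higher by 1.19, a call lost with the spike-in probes set equal. SREBF1, which encodes the lipogenic transcription factor SREBP-1, was higher by 1.13 through its brighter probe. Its other probe differed by -0.03 (levels of 0.69 and 0.66). The SREBF1 call is lost with the mean of the probes and with the spike-in probes set equal. The other 13 lay within 2-fold, and the median was 0.21. Thus 2 of 16 were higher and 1 lower, beside 10.2% and 10.0% of all genes detected on at least 1 array, and nothing is read from these counts.

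A further 20 genes described as PPAR targets in various tissues had a probe, and 12 were detected. Of these, 4 were higher and 2 lower, beside 10.2% and 10.0% of all genes detected on at least 1 array. The list was chosen with earlier results of these data known, so nothing is read from these counts. The 4 that were higher were TXNIP, an arrestin-like inhibitor of thioredoxin (2.40, levels of 4.52 and 6.92), the acyl-CoA thioesterase ACOT1 (1.67), the glycerol channel AQP3 of keratinocytes (1.54) and the cholesterol exporter ABCA1 (1.05). The other probes of AQP3 (1.71) and ABCA1 (1.04) gave like values, but the ABCA1 call was lost under median scaling, normexp, equal spike-in probes and with the local trend taken off, and the ACOT1 call under normexp and where signals under 100 were taken as not detected. The 2 that were lower were the liver transcription factor CREB3L3 (-1.36) and the inositol phosphatase IMPA2 (-1.02). IMPA2 differed by -0.80 through its other probe and was not called under 5 of the 14 other settings that kept the 2-fold threshold. CREB3L3 lost its call in the same settings as ACOT1. CYP4A11, a fatty acid hydroxylase, was detected with the DLEU1 vector only and was at least 1.87-fold higher. The median of the 11 detected on both arrays was -0.33. VNN1, CYP4A22, FGF21, ADIPOQ, PCK1, UCP1, ABCG1 and APOA5 were detected on neither array.

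Over all lists together, 169 pathway genes beside the members had a probe and 130 were detected. Of these 15 (11.5%) were higher and 10 (7.69%) were lower, near the 10.2% and 10.0% of all genes. Their median over the 122 detected on both arrays was 0.02. The 7 members detected on both arrays had a median of 0.30, with 4 values above 0 and 3 below. The members and the wider pathway thus held changes in both directions, and the median of no pathway list reached 2-fold.

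**Figure D4:**
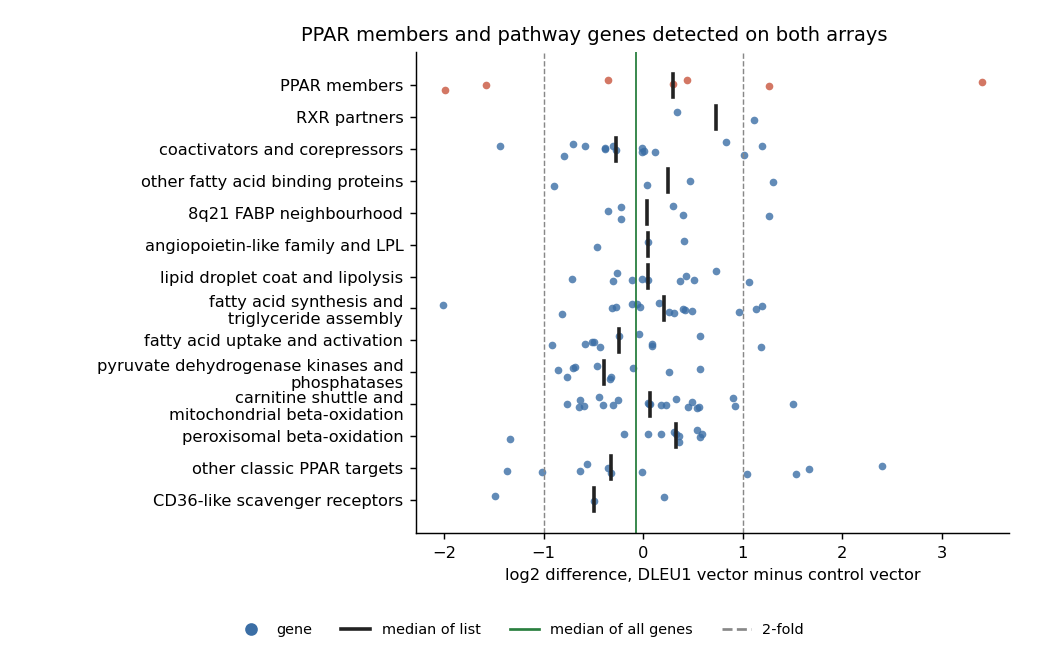
Log2 difference (DLEU1 vector minus control vector) of each gene detected on both arrays, by list. Points are genes, black bars the medians of these lists, the green line the median of all genes (-0.07) and dashed lines 2-fold; the medians of the pathway lists lie between -0.50 (CD36-like scavenger receptors) and 0.73 (RXR partners), and genes past the 2-fold lines stand on both sides.

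The arrays were alike in the share of probes detected. Between 47.6% and 48.1% of the probes were well above background, 0 spots were saturated, and both arrays lay on 1 slide and were read in 1 scan. The brightest DLEU1 probe was higher by 2.74 on the array labelled with the DLEU1 vector (levels of 3.17 and 5.91). On the DLEU1 vector array 77 dark spots lay in a strip of 5 columns, where 41.9% of lit probes were 2-fold lower against 12.2% outside it. Among the genes named above only the dimmer PPARD probe and a probe of CROT lie in this strip. The SD of the difference between replicated spots was 0.0797 over 282 probes. Between different probes of 1 gene the pooled SD was 0.470 over 4674 genes. The differences of PPARG, CPT1A, CD36 and FABP5 exceed both values, as those of any gene called at 2-fold must, so nothing is read from this. Neither SD holds the variation between cultures.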

How the data were processed

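RNA of Ca9-22 cells with a control vector or a DLEU1 vector was measured on 1 array each. The deposited intensity values were made by the authors with Agilent Feature Extraction 10.7.3.1. Per the file headers the local background had been subtracted from these values and the signal detrended, and probe positions are on hg19. The deposited p-values of each spot against its background came from the same software and served as 1 filter. The authors then analysed the arrays in GeneSpring. The deposited series value table held the same intensity, rounded to within 0.497%.

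Control spots were left out, as were 84 and 103 outlier spots. Processed signals were converted to log2 and averaged over a probe's spots, and the array's 75th percentile over non-control probes was taken off. Each difference is DLEU1 vector minus control vector. Detection needed most spots to be well above background. A probe detected on 1 array only was set against the higher of the lowest detected level and its own level on the dim array. It is given as at least that fold where the lowest detected level was the higher, and otherwise as the plain difference. Each gene took its value from the brightest of the probes that both arrays detected, or otherwise from the largest bound. The threshold was 2-fold. The number of arrays (2) limits the precision, and no test was made.

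The members, the 14 pathway lists and the 6 marker lists were chosen with earlier results of these data known. Named were all members, the 2 genes nearest in value to each member, and of each list the extreme genes, the called genes and those on 1 array only. Of 231 list genes, 220 were found by name, 1 by another name and 10 had no probe read here, among them all 7 FABP5 pseudogenes of a pathway list. Alternatives were 5 scalings, normexp (offset of 50), the series values, 3 filters on dim probes, the mean of detected probes and thresholds of 1.5-fold and 3-fold. Equal spike-in probes, leaving out the strip of low signal (rows 1 to 128, columns 36 to 40) and taking off the local trend of 100 neighbouring spots were chosen after seeing the data. Calculations used Python 3.11.15, numpy 2.4.6, pandas 2.3.3 and limma 3.58.1 in R 4.3.3, and the scripts were tested on simulated data. Probe letters came from the deposited files and promoter windows from RefSeq (GRCh38.p14).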

Additional observations from a re-analysis of the deposited data

How the results depend on the processing

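Over the 16 other settings, the counts of members called higher and lower were 3 and 2 or within 1.5 times of these, except that a 3-fold threshold left 1 member lower, CPT1A. With that threshold 2 were higher, FABP4 and CD36. With the spike-in probes set equal, 2 were higher and FABP5 fell under 2-fold. With a 1.5-fold threshold 4 were higher, PLIN2 being added, and without a filter on dim probes 4 were higher, PDK4 being added with a difference of 1.79. Of the values of single members, 75 were taken as unchanged and 49 as moved, and no called value changed sign. A shift of -0.113, as under median scaling, was taken as moved. It is smaller than the software error of any member probe. The values of the lists were counts of genes called and medians, of which 676 were taken as unchanged and 215 as moved. A count taken as unchanged could still differ. Under median scaling 3 of the other classic PPAR targets were higher, against 4 in the main setting. No paired analysis was possible because each group had 1 array, and for the same reason no replicate could be left out. Genes with a single probe, FABP4, CD36 and CPT1A among them, have no second reading on these arrays.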
